A study of Mus musculus with 8 samples.

Results

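A set of 6 genes that mark the lining cells of the lung was followed through a study of silica exposure: the surfactant gene Sftpc, the secretoglobin genes Scgb1a1 and Scgb3a1, the transcription factor gene Nkx2-1, the phosphate transporter gene Slc34a2 and the membrane traffic gene Mal2. They were taken by symbol from the platform's probe-to-gene table. All 6 were found, each with 1 probe that had a value on every array, among 11597 genes tested and 16251 probes.

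The RNA came from lung interstitial leukocytes, the white blood cells freed by digesting minced lung with collagenase and collected on a Percoll density gradient. There were 4 groups of 2 arrays: Rag1-/- mice given silica, Rag1-/- mice given saline, wild-type C57Bl/6 mice given silica and wild-type C57Bl/6 mice given saline, all 6 to 8 weeks old. Silica (1 mg of crystalline SiO2 in 25 µl of saline) or saline alone was instilled through the nose under ketamine once a week for 4 weeks. Rag1-/- mice, which lack mature lymphocytes of the T and B lineages, were also injected with 300 µg of an antibody against NK1.1 at a time to deplete natural killer cells and are called RagKO here, so the deletion and the depletion cannot be told apart. The labels give no strain for the Rag1-/- mice. They describe the replicates as biological but give no number of mice behind an array, so the p-values below reflect array-to-array spread alone, which may be partly technical.

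The distal airway and the alveoli are lined by a few epithelial cell types with well-known marker genes. Club cells of the airway secrete Scgb1a1 protein and, in some of them, Scgb3a1. Alveolar type II cells make surfactant, of which the Sftpc product is the most cell-specific protein, and take up phosphate through the Slc34a2 product. Nkx2-1 is the transcription factor that sets lung epithelial identity and binds the promoters of surfactant and secretoglobin genes. Mal2 encodes a membrane protein that carries cargo to the apical face of many polarised epithelia and is not restricted to the lung. None of these 6 is a leukocyte gene by its known role.

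Values are log2 ratios of leukocyte RNA over a universal mouse reference RNA on the same array, so a level says how far a probe stood above that reference and cannot be set against the level of another gene. The base of the deposited logarithm is not labelled and was taken to be 10 from the range of the values. If it were 2, every difference would be smaller by the factor 3.3219 while the tests would be identical. Genes were called changed at a Benjamini-Hochberg adjusted p below 0.05 in limma's test over all 11597 genes.

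On the arrays themselves, the pan-leukocyte gene Ptprc, which encodes CD45, lay between 1.50 and 2.04 everywhere. The epithelial adhesion genes Cdh1 (1.95 to 4.98) and Epcam (-2.41 to -0.95) were both lowest in WT saline and highest in RagKO saline. The mean over 12 pan-leukocyte genes was 2.40 to 2.48 in RagKO silica, 1.81 to 1.87 in RagKO saline, 2.50 to 2.63 in WT silica and 2.83 to 2.84 in WT saline. A probe for large-subunit ribosomal RNA (Rn28s1) read 0.86 and 0.59 in RagKO silica, 2.43 and 2.08 in RagKO saline, 2.17 and 2.45 in WT silica and 3.67 and 3.71 in WT saline. The RagKO silica arrays differed from each other in sex-linked transcripts, with Xist at -2.71 and 2.22 on one of its probes and Eif2s3y at 2.42 and -2.22. For results that rest on that group, changed calls of the members and the main list counts are therefore also given without either array. Sex-linked transcripts also differed between the other groups. Eif2s3y was 2.90 and 2.60 in RagKO saline, 0.34 and 1.05 in WT silica and 2.32 and 2.27 in WT saline. The same Xist probe read -2.47 and -2.64 in RagKO saline, 0.82 and 0.48 in WT silica and -0.24 and -0.21 in WT saline. The labels give no sex. Its part in the differences was not tested, nor was that of the Rn28s1 shift.

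The 6 genes followed no single pattern. The secretoglobin genes were low in RagKO silica and nearly level in the other groups, Sftpc was highest in WT saline, Slc34a2 and Mal2 were lowest in WT saline and highest in RagKO saline, and Nkx2-1 was highest in WT silica. As a measure of likeness, each gene was centred on its own mean and the root mean square difference between a pair of profiles was taken over the 8 arrays. It was 0.17 between Scgb1a1 and Scgb3a1 and 0.45 between Slc34a2 and Mal2. Sftpc stood 0.36 from Scgb1a1 and 0.41 from Scgb3a1 but 1.62 from Slc34a2, its fellow type II cell gene. Nkx2-1 was at least 0.81 from every other member.

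**Figure D1:**
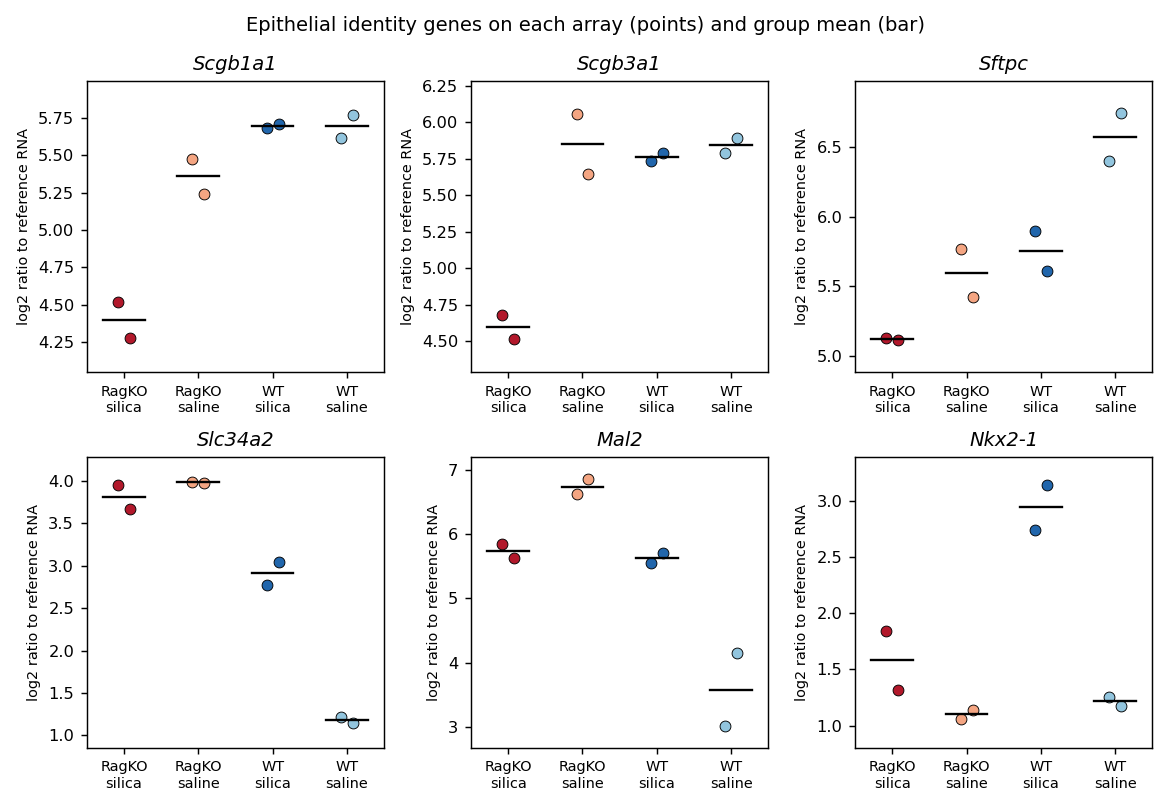
Log2 ratio to the reference RNA (vertical axis, scaled separately for each gene) of the 6 genes on the 8 arrays, in the groups RagKO silica, RagKO saline, WT silica and WT saline; points are arrays and bars are group means. Scgb1a1 and Scgb3a1 drop in RagKO silica, Slc34a2 and Mal2 are lowest in WT saline, and Nkx2-1 stands out in WT silica.

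Promoter sequence was at hand in RefSeq (GRCm38.p6) for 3 of the 6 genes, covering 250 bases before and 50 after the annotated start. All 3 are shown, and they were not chosen by their values. On the arrays Scgb3a1 was low in RagKO silica, Nkx2-1 was highest in WT silica, and Slc34a2 was lowest in WT saline. The Scgb3a1 window is chr11:49663345-49663644 on the plus strand, the Nkx2-1 window chr12:56536859-56537158 on the minus strand and the Slc34a2 window chr5:53049103-53049402 on the plus strand. They are printed in the direction of transcription, with matches to the searched motifs in capitals.
Scgb3a1: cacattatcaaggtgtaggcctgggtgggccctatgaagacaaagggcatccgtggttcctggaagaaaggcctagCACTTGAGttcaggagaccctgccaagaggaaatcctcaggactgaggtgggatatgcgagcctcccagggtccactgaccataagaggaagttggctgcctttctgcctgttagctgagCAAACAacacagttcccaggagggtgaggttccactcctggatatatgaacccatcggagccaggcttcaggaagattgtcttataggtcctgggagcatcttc
Nkx2-1: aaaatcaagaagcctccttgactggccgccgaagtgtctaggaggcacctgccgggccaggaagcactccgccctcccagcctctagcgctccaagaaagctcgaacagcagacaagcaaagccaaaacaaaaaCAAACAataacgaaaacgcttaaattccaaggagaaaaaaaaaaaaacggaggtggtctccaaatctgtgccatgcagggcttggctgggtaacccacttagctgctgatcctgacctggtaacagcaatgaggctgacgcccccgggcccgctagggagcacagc
Slc34a2: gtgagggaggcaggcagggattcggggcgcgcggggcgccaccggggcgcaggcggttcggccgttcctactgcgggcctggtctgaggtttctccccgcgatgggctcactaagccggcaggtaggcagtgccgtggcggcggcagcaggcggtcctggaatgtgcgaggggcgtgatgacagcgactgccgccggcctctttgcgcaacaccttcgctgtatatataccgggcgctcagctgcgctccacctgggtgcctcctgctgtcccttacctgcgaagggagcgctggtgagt

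The motifs were searched on both strands, and every match lay on the strand opposite to the one printed, so the capitals show its reverse complement. In Scgb3a1, the NKX2 core CAAGTG began at position -174 from the start and overlapped the NKX2-1 site CTCAAG, which began at -172. A short forkhead motif, TGTTTG, began at -54 in Scgb3a1 and at -116 in Nkx2-1. Of 32851 promoter windows in the table, 13.6% held CAAGTG, 15.9% CTCAAG and 18.2% TGTTTG on either strand. The longer forkhead motif TGTTTAC (3.65% of windows), the GATA motif AGATAA (11.2%), the TATA box TATAAA (13.6%), the C/EBP motif TTGCAA (6.23%) and the E-box CACGTG (7.15%) had no match in the 3 windows. The Slc34a2 window matched none of the 8 motifs and had the highest GC content of the 3 (68.7%, against 53.3% for Scgb3a1 and 53.7% for Nkx2-1). A match describes letters only, and a motif without a match is only not spelled out in these windows.

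The question put to the WT mice was how silica changed these genes in animals with lymphocytes. Slc34a2, Nkx2-1 and Mal2 rose, Sftpc fell and the secretoglobin genes did not pass the test. That is 4 of 6 called, 3 up and 1 down, where 19.7% of all genes were called (11.5% up and 8.21% down). The median over the 6 was 0.86, against -0.01 over all genes.

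Slc34a2, whose product is the sodium-phosphate cotransporter of the type II cell's apical membrane, read 2.78 and 3.05 in WT silica and 1.21 and 1.15 in WT saline. Both silica arrays lay above both saline arrays, and the difference was 1.73 (SE 0.13, 3.32-fold, adjusted p = 6e-05). Nkx2-1 read 2.74 and 3.14 in WT silica and 1.25 and 1.18 in WT saline, again without overlap. Its difference was 1.73 (SE 0.18, 3.31-fold, adjusted p = 0.000284). Among all genes these were the 18th and 19th largest rises.

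Mal2 read 5.54 and 5.71 in WT silica and 3.02 and 4.14 in WT saline. It was the 5th largest rise (2.05, SE 0.28, 4.13-fold, adjusted p = 0.00109), although its saline arrays stood further apart than those of any other member. Without the lower saline array the rise was 1.48, and without the higher one 2.61, called both times.

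Sftpc, which encodes a small hydrophobic surfactant protein, read 5.90 and 5.61 in WT silica and 6.40 and 6.74 in WT saline. It was lower after silica by a log2 difference of -0.82 (SE 0.16, 1.76-fold, adjusted p = 0.00647). The call depended on single arrays: without the second WT saline array the difference was -0.65 (adjusted p = 0.0676), and without the second WT silica array -0.67 (adjusted p = 0.0525).

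Scgb1a1, the club cell secretory protein gene, averaged 5.70 ± 0.02 in WT silica and 5.70 ± 0.11 in WT saline (SD, n = 2). Its difference of 0.00 had a 95% confidence interval from -0.28 to 0.29. Scgb3a1, a related secreted protein of the airway, read 5.73 and 5.79 in WT silica and 5.79 and 5.89 in WT saline, with a difference of -0.08 (interval -0.40 to 0.24). Neither interval reached a change as large as that of Sftpc.

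Other type II cell genes mostly rose with silica in WT mice, while most club and secretory genes did not pass. Of 20 measured alveolar type II and surfactant genes, 16 rose and Sftpc alone fell, with a list median of 0.96. That list holds 3 of the 6 members; without them, 14 of 17 rose and none fell (median 0.92). Lpcat1, which makes surfactant phosphatidylcholine, rose by 1.32, the lamellar body transporter gene Abca3 by 1.08 and the lysosomal membrane gene Lamp3 by 1.14. The other surfactant protein genes rose less or did not pass, at 0.92 for Sftpd, 0.68 for Sftpb and 0.16 (not called) for Sftpa1. Of 19 club and secretory genes, 7 rose and none fell (median 0.45), among them the secreted Bpifa1 (1.17) and the carbonyl reductase gene Cbr2 (0.92). Of 12 genes of ciliated cells 9 rose (median 0.91), and of 14 type I cell genes 6 rose (median 0.45, the water channel gene Aqp5 1.12). Of 22 general epithelial genes, Mal2 among them, 18 rose and 1 fell (median 0.76, Cdh1 1.38). Without Mal2, 17 of 21 rose and 1 fell (median 0.74).

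The transcription factor genes that share Nkx2-1's tissue rose in part. Of 16 lung epithelial transcription factor genes, Nkx2-1 among them, 9 rose and none fell, with a median of 0.64. Without Nkx2-1, 8 of 15 rose and none fell (median 0.64). Foxa2, which acts with Nkx2-1 at airway and surfactant genes, rose by 1.63, Gata6 by 0.77, Klf5 by 0.64 and the type II cell factor Elf5 by 0.82. Foxj1, the ciliated cell factor, counted in the ciliated list, rose by 1.55. Markers of other structural cells moved the same way, with 11 of 15 fibroblast genes and 11 of 17 endothelial genes up (1 endothelial gene down), while 4 of 12 pan-leukocyte genes fell and none rose. In bulk RNA, more epithelial cells and more RNA per cell cannot be told apart, and the part of these other cells in the members' differences was not tested.

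In RagKO mice the same comparison gave another set of changes. Scgb1a1, Scgb3a1, Mal2 and Sftpc fell, and Slc34a2 and Nkx2-1 did not pass. None of the 6 rose. Thus 4 of 6 were called, all down, where 32.7% of all genes were called (15.9% down and 16.8% up), with a member median of -0.72 against -0.03 over all genes.

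Scgb3a1 read 4.68 and 4.52 in RagKO silica and 6.06 and 5.64 in RagKO saline, without overlap. Its fall (-1.25, SE 0.14, 2.38-fold, adjusted p = 0.000242) was the 59th largest of all genes. Scgb1a1 read 4.51 and 4.27 in RagKO silica and 5.48 and 5.24 in RagKO saline, and its difference was -0.97 (SE 0.13, 1.95-fold, adjusted p = 0.000537). Both calls held without either array of either group, with Scgb3a1 between -1.46 and -1.04 and Scgb1a1 between -1.09 and -0.85.

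Mal2 read 5.84 and 5.63 in RagKO silica and 6.62 and 6.86 in RagKO saline, a difference of -1.00 (SE 0.28, 2.01-fold, adjusted p = 0.0214). The call was lost when any array of these groups was left out, with differences from -1.13 to -0.88 and adjusted p from 0.0602 to 0.115. Sftpc read 5.13 and 5.11 in RagKO silica and 5.77 and 5.42 in RagKO saline, and its difference of -0.47 (SE 0.16, adjusted p = 0.0454) was the least stable of the calls. After quantile normalization it was -0.11 (adjusted p = 0.588). It was -0.48 and -0.47 without the first and the second RagKO silica array (adjusted p = 0.13 and 0.121) and -0.30 without the first RagKO saline array (adjusted p = 0.263).

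Slc34a2 read 3.95 and 3.67 in RagKO silica and 3.99 and 3.97 in RagKO saline (difference -0.17, interval -0.47 to 0.12, adjusted p = 0.341). Nkx2-1 read 1.84 and 1.32 in RagKO silica and 1.06 and 1.14 in RagKO saline (difference 0.48, interval 0.08 to 0.87, adjusted p = 0.0618). Without the RagKO silica array that had high Xist, the Nkx2-1 difference was 0.74 and passed (adjusted p = 0.0137).

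Airway genes fell with the secretoglobins in RagKO mice. Of 19 club and secretory genes, a list that holds both secretoglobin members, 14 fell and none rose (median -0.85). Without those 2, 12 of 17 fell (median -0.66), led in size by the glutathione transferase gene Gsta3 (-2.07) and the retinaldehyde dehydrogenase gene Aldh1a1 (-1.82). The mucosal genes Lypd2 (-1.30) and Bpifa1 (-1.04) and the club cell cytochrome gene Cyp2f2 (-0.66) fell as well. Of 12 ciliated cell genes 8 fell (median -0.87; Tekt1 -1.27), and of 20 type II genes 8 fell (median -0.31; Chia1 -1.07, Mlc1 -0.69, Dram1 -0.64). Leaving out either RagKO silica array left 10 or 11 club genes, 5 or 7 ciliated genes and 5 type II genes called. Without the array that had high Xist, 2 of those type II genes rose. Other epithelial lists were mixed. Of 22 general epithelial genes, Mal2 among them, 6 fell and 3 rose (median -0.08), and of 14 type I genes 6 fell and 2 rose (median -0.25). Of 16 lung epithelial transcription factor genes 1 fell and 1 rose (median 0.04). List medians without the first and the second RagKO silica array were -0.09 and -0.08 (general epithelial) and -0.36 and -0.21 (type I). For transcription factor genes the median was 0.02 both times. The balance of called rises and falls in these lists depended on the array left out. Among other structural cells, 5 of 6 mesothelial genes (median -0.58) and 4 of 8 smooth muscle genes (median -0.60) fell and none rose. Fibroblast genes (5 of 15 up and 6 down) and endothelial genes (4 of 17 up and 5 down) were split. On the same arrays 8 of 12 pan-leukocyte genes rose and 1 fell, with a median of 0.68, and 9 of 14 alveolar macrophage genes rose and 1 fell (median 0.71). Without the first and the second RagKO silica array, 6 and 7 pan-leukocyte genes rose and none fell. Their part in the falls was not tested.

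**Figure D2:**
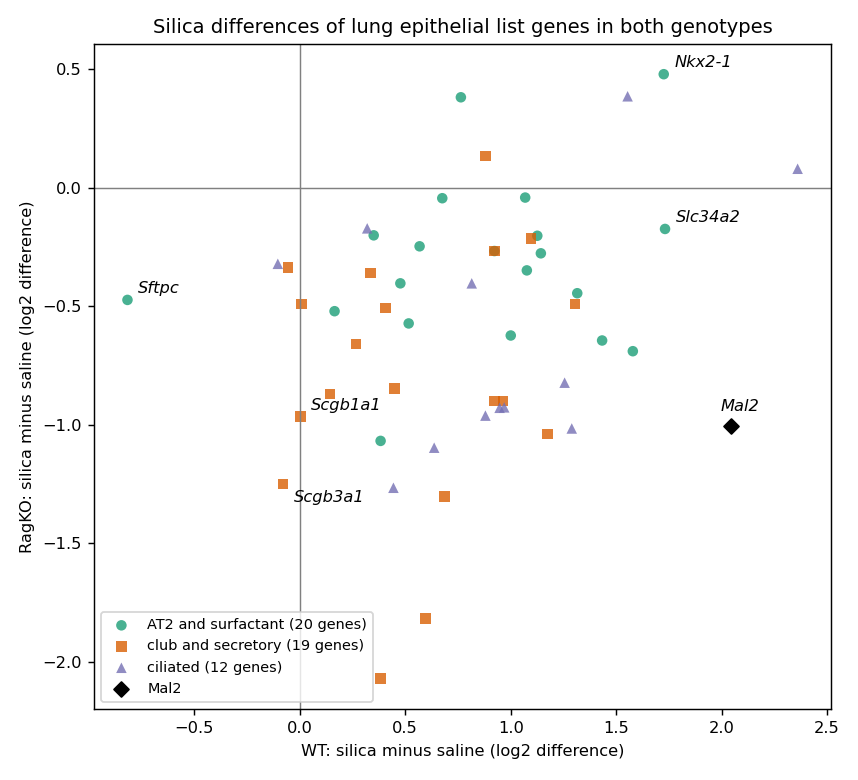
Log2 difference between silica and saline in WT mice (horizontal axis) against the same difference in RagKO mice (vertical axis) for genes of the type II, club and ciliated cell lists and for Mal2, with the 6 members named; each symbol is 1 gene. Most genes lie right of 0 and below 0, Sftpc lies left of 0, and the secretoglobin genes lie on the vertical line and well below 0.

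The silica effects of the genotypes differed for 5 of the 6 genes when the difference itself was tested as an interaction, all 5 in the direction of a lower effect in RagKO. Of all genes 23.3% were called (12.3% in that direction), and the member median was -1.21 against 0.00 over all genes. The RagKO effect minus the WT effect was -3.05 for Mal2 (SE 0.40, adjusted p = 0.000686), the 2nd lowest value of all genes. It was -1.91 for Slc34a2 (SE 0.19, adjusted p = 0.000183), -1.25 for Nkx2-1 (SE 0.25, adjusted p = 0.00601), -1.17 for Scgb3a1 (SE 0.20, adjusted p = 0.00264) and -0.97 for Scgb1a1 (SE 0.18, adjusted p = 0.00425). Sftpc, at 0.34 (interval -0.16 to 0.85, adjusted p = 0.308), did not pass. All 5 calls held without each of the 8 arrays in turn.

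These equal signs came about in different ways. For Slc34a2 and Nkx2-1 the WT effect was called and the RagKO effect was not, for the secretoglobin genes the reverse held, and for Mal2 the effects were called in opposite directions. Sftpc fell in both genotypes. Among the marker lists the interaction was negative for 18 of 20 type II genes, 16 of 19 club genes and 10 of 12 ciliated genes, and positive for none of them. Without the members those counts were 16 of 17 type II genes and 14 of 17 club genes. Calls were less uniform in other epithelial lists. They were negative for 14 of 22 general epithelial genes, 7 of 14 type I genes and 8 of 16 lung epithelial transcription factor genes. Each of these lists also held 1 positive call. Without the first and the second RagKO silica array their negative calls were 12 and 10, 7 and 7, and 7 and 4, in the same order. Without the first and the second RagKO silica array the interaction was called negative for 15 and 14 of 20 type II genes, 16 and 15 club genes and 9 ciliated genes each time. It was positive for 9 of 12 pan-leukocyte genes, and for 8 and 7 without those arrays. Fibroblast (8 of 15, with 1 positive), smooth muscle (5 of 8) and endothelial genes (6 of 17) had negative calls too. Type II genes with large negative values were Mlc1 (-2.27), Dram1 (-2.08) and Lpcat1 (-1.76); besides Sftpc, the lipid synthesis gene Fasn (-0.38) was the other type II gene that did not pass.

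**Figure D3:**
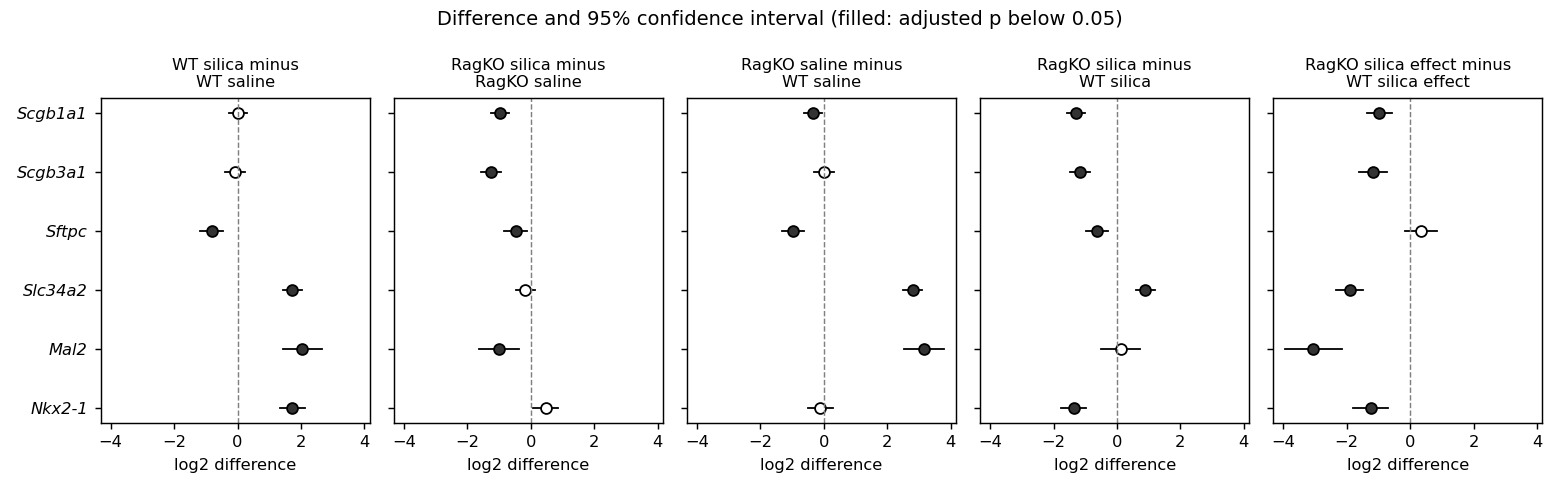
Log2 differences of the 6 genes in 5 comparisons, 1 panel each, with 95% confidence intervals from limma; filled points passed an adjusted p of 0.05. Slc34a2 and Mal2 lie far right of 0 for RagKO saline minus WT saline, and 5 of 6 genes lie left of 0 in the last panel.

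RagKO and WT leukocyte preparations already differed after saline. This comparison uses the same WT saline arrays as the WT silica effect, so the differences are given side by side and not as separate evidence. Slc34a2 and Mal2 were higher in RagKO, Sftpc and Scgb1a1 were lower, and Scgb3a1 and Nkx2-1 did not pass. That is 4 of 6 called, against 66.2% of all genes (37.0% up and 29.2% down), a share near the background.

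Mal2 read 6.62 and 6.86 in RagKO saline and 3.02 and 4.14 in WT saline. The difference was 3.16 (SE 0.28, 8.94-fold, adjusted p = 4.92e-06), the 14th largest rise of all genes. Slc34a2 read 3.99 and 3.97 in RagKO saline and 1.21 and 1.15 in WT saline, a difference of 2.80 (SE 0.13, 6.97-fold, adjusted p = 1.18e-07). Silica in WT mice thus brought Slc34a2 by 1.73 and Mal2 by 2.05 toward the level that RagKO mice had after saline.

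Sftpc read 5.77 and 5.42 in RagKO saline and 6.40 and 6.74 in WT saline (-0.98, SE 0.16, 1.97-fold, adjusted p = 0.000354). Scgb1a1 read 5.48 and 5.24 in RagKO saline and 5.62 and 5.77 in WT saline. Its difference of -0.34 (SE 0.13, adjusted p = 0.0402) was lost without either WT saline array (adjusted p = 0.063 and 0.223) and without the second RagKO saline array (0.217). Scgb3a1 (0.01, interval -0.31 to 0.32) and Nkx2-1 (-0.11, interval -0.51 to 0.28) did not pass, and the spread of the RagKO saline arrays of Scgb3a1 (6.06 and 5.64) took in both WT values.

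Sftpc again went against most of its list. Of 20 type II genes 16 were called higher in RagKO saline and Sftpc alone was called lower, with a list median of 1.22. Lpcat1 (3.13), Lamp3 (3.04) and the lung chemokine gene Cxcl15 (2.66) were far higher. Sftpb (mean 2.97 in RagKO saline and 3.29 in WT saline), Nkx2-1 and Fasn lay lower without passing. Of 19 club genes 16 were higher and Scgb1a1 alone was lower (median 0.94; Gsta3 3.70). Of 12 ciliated genes 10 were higher and none lower (median 1.19). Among other structural cells, 7 of 8 smooth muscle genes (median 1.88) and 10 of 15 fibroblast genes (median 1.29, 4 lower) were also higher. Endothelial genes were split, with 6 of 17 higher and 8 lower (median -0.26). On the same arrays 9 of 12 pan-leukocyte genes were lower and 1 higher, with a median of -0.68, as was Ptprc (-0.46). The part of a different make-up of the preparations in these differences was not tested.

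After silica, RagKO preparations had less of 4 of the 6 transcripts than WT preparations and more of Slc34a2. The called share, 5 of 6, is set against 60.1% of all genes (26.4% down and 33.7% up), and the member median was -0.90 against 0.07 over all genes. Nkx2-1 read 1.84 and 1.32 in RagKO silica and 2.74 and 3.14 in WT silica (-1.36, SE 0.18, 2.57-fold, adjusted p = 0.000102). Scgb1a1 read 4.51 and 4.27 in RagKO silica and 5.69 and 5.71 in WT silica (-1.30, SE 0.13, 2.47-fold, adjusted p = 1.73e-05). Scgb3a1 was lower by -1.16 (SE 0.14, adjusted p = 6.6e-05).

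Slc34a2 remained higher in RagKO, at 3.95 and 3.67 in RagKO silica and 2.78 and 3.05 in WT silica (0.90, SE 0.13, 1.86-fold, adjusted p = 0.000242). Sftpc was lower by -0.63 (SE 0.16, adjusted p = 0.00645), a call lost after quantile normalization (-0.30, adjusted p = 0.095) and without the first WT silica array (adjusted p = 0.0519). Mal2, at 5.84 and 5.63 in RagKO silica and 5.54 and 5.71 in WT silica, overlapped and did not pass (0.11, interval -0.51 to 0.74). The type II list was split, with 7 of 20 genes higher and 5 lower (median 0.06), and the club list with 5 of 19 higher and 8 lower (median -0.04). Without the RagKO silica array that had high Xist, 6 type II genes were higher and 3 lower, and 5 club genes were higher and 5 lower. Without the other one the counts were 6 higher and 5 lower for type II genes and 4 higher and 9 lower for club genes. Pan-leukocyte genes were split too, with 3 of 12 higher and 3 lower, and 1 lower without the array that had high Xist.

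**Figure D4:**
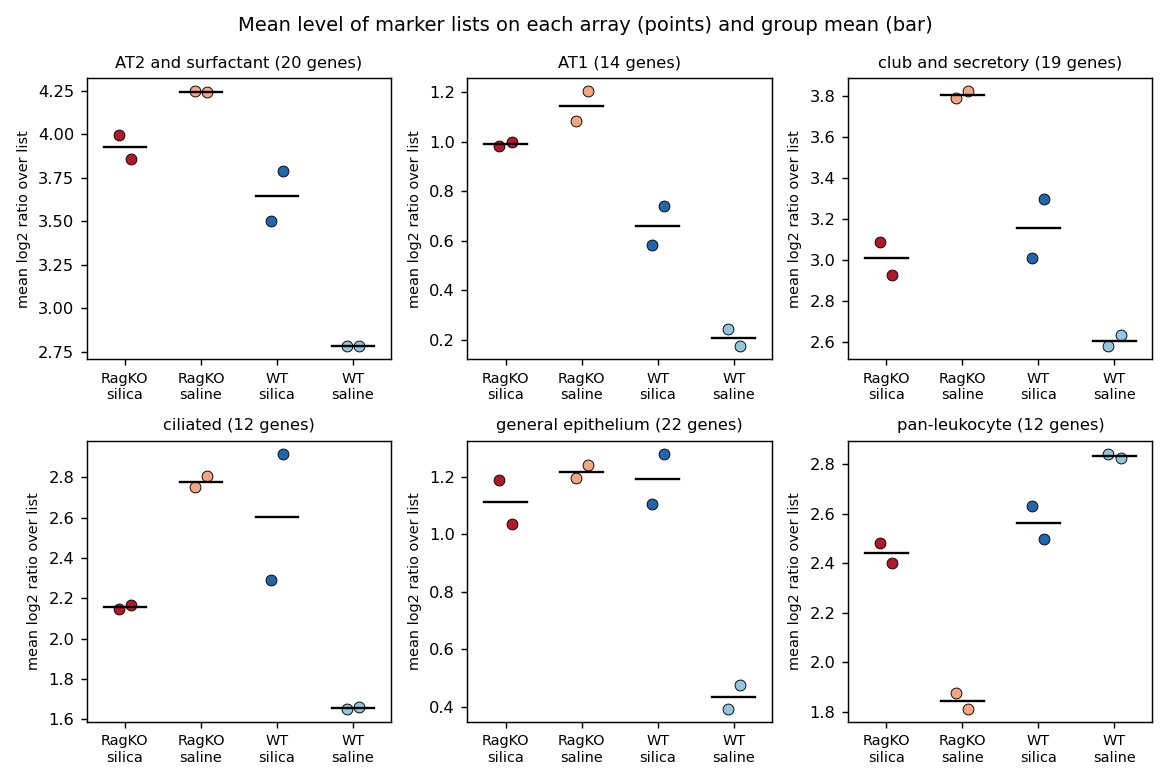
Mean log2 ratio to the reference RNA over the measured genes of 6 marker lists (vertical axis, scaled separately for each list) on the 8 arrays, in the groups RagKO silica, RagKO saline, WT silica and WT saline; points are arrays and bars are group means. The type II, club and ciliated lists are lowest in WT saline, where the pan-leukocyte list is highest, and the pan-leukocyte list is lowest in RagKO saline.

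Ordered from highest to lowest mean, Sftpc ran WT saline (6.57 ± 0.24), WT silica (5.75 ± 0.20), RagKO saline (5.59 ± 0.24) and RagKO silica (5.12 ± 0.01; SD, n = 2), and the middle groups overlapped. For Slc34a2 the order was RagKO saline (3.98 ± 0.01), RagKO silica (3.81 ± 0.20), WT silica (2.91 ± 0.19) and WT saline (1.18 ± 0.05), with the RagKO groups not told apart by the test. Mal2 ran RagKO saline (6.74 ± 0.17), RagKO silica (5.74 ± 0.15), WT silica (5.63 ± 0.12) and WT saline (3.58 ± 0.80), with RagKO silica and WT silica overlapping. Nkx2-1 ran WT silica (2.94 ± 0.28), RagKO silica (1.58 ± 0.37), WT saline (1.22 ± 0.05) and RagKO saline (1.10 ± 0.06), the saline groups not passing the test. For the secretoglobin genes RagKO silica was lowest, at 4.39 ± 0.17 for Scgb1a1 and 4.60 ± 0.12 for Scgb3a1, and the other 3 groups lay between 5.36 and 5.85.

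The genes whose centred profiles lay nearest to each member were found over the 8 arrays among all genes tested. Armc3 was nearest to both secretoglobin genes, at 0.14 from Scgb1a1 and 0.10 from Scgb3a1, followed by the other secretoglobin gene. The third places went to Cidec for Scgb1a1 (0.17) and to Hbb-y for Scgb3a1 (0.17). Sftpc was nearest to Pold4 (0.14) and to the histone genes H4c1 and H4c6 (0.14 each), none of them a type II cell marker. Nkx2-1 was nearest to Rbpjl (0.13), 2610028H24Rik (0.17) and Arc (0.17). Slc34a2 was nearest to the cadherin genes Cdh1 (0.19) and Cdh16 (0.21) and to Atp11a (0.21), and Mal2 to Tmprss4 (0.40), Gucy1b1 (0.40) and Mlc1 (0.41), at larger distances than for the other members.

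Genes known for the same functions as Slc34a2 and Mal2 were read from their own lists. Of 5 measured phosphate transport genes Slc34a2 was the single gene to rise in WT silica; the ubiquitous transporter gene Slc20a1 was at 0.01 there. In RagKO silica 2 of the 5 rose and none fell, Slc20a1 by 0.45 (adjusted p = 0.0488) and the scaffold gene Slc9a3r1 by 0.57 (adjusted p = 0.0491), both just inside the threshold. Of 16 genes of polarised membrane traffic and the MAL family, 5 rose with silica in WT mice and none fell (median 0.14). Besides Mal2 these included Cmtm8 (1.20), the apical recycling motor gene Myo5b (0.67) and Rab25 (0.44). In RagKO mice 3 of the 16 rose and 7 fell with silica, with Cmtm8 at -1.05, Rab25 at -0.70 and Myo5b at -0.51.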

How the data were processed

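Agilent 2-colour arrays, 8 in all, carried leukocyte RNA in Cy5 against a mouse reference RNA in Cy3, never with the dyes swapped, per the labels' protocols. The authors deposited 1 log ratio per probe and array; that this is log10 was judged from the range, whose maximum would be 737-fold as log10 and 7.30-fold as log2, and its direction from the dyes. How background, dyes, centring and filters were handled is not given in the sources used here, and without intensities, saturated or background-level spots could not be recognised. Column medians on the deposited log10 scale ran from -0.0725 to -0.0521. Arrays of a group correlated across probes with r from 0.977 to 0.989; 8 arrays limit the precision of every value.

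Ratios were multiplied by 3.3219 to log2. The 14716 probes with values on all arrays were kept, symbols came from the platform table (1 symbol for 14488 probes, several for 10, none for 1753; 14460 matched GRCm38.p6 by Entrez identifier), and probes of a gene were averaged to 11597 genes. Groups were compared with limma 3.58.1 in R 4.3.3 (lmFit, eBayes, Benjamini-Hochberg adjustment over all genes) in a model of 4 group means over 8 arrays with 4 residual degrees of freedom. The fit was tested on simulated data with normal noise and far fewer changed genes than were called here, a setting unlike these data. No probe named Rag1 was analysed here, so the genotype labels were not checked by it. Named besides the members were the 3 nearest profiles of each, up to 4 called genes per list and comparison by smallest p and up to 2 in the other direction, and Ptprc, Epcam, Cdh1, Rn28s1, Xist and Eif2s3y as markers of leukocytes, epithelium, RNA make-up and sex. Abca3, Cbr2, Chia1, Cyp2f2, Fasn, Lamp3 and Lypd2 fall outside that rule and were picked with their values in view. A gene that met the rule in any comparison could also be cited in another, and not every such gene is cited. Alternatives covered scaling, probe handling, limma options, the replicate number as a block and each array left out. Members and lists were chosen with earlier results of these data known, Il33, Dram1, Gsta3 and Cfap65 among them.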

Additional observations from a re-analysis of the deposited data

Results flagged for a closer look

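The silica effect differed between the genotypes, by the test of the difference itself, for 5 of the 6 genes. Of all genes 23.3% were called, 12.3% in the direction of a lower effect in RagKO. The effect in RagKO less the effect in WT was -3.05 for Mal2, -1.91 for Slc34a2, -1.25 for Nkx2-1, -1.17 for Scgb3a1 and -0.97 for Scgb1a1 (log2), each called in limma's interaction test. On the same arrays the interaction was positive for 9 of 12 pan-leukocyte genes (median 0.86; 8 and 7 without the first and the second RagKO silica array), and the part of that shift in the members' values was not tested. Groups of 2 arrays are too small to look for single arrays that stand apart in the members' values. In sex-linked transcripts the RagKO silica arrays, on which all 5 rest, did differ, with Eif2s3y at 2.42 and -2.22.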

How the results depend on the processing

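Across 16 alternative settings the 30 member differences gave 474 values, of which 445 kept their direction and side of the threshold, 19 lost the call, 3 gained it and 7 changed sign. Part of this agreement was fixed in advance. Reading the values as log2 shrank every difference and left every test the same. The settings on probes and limma's options could change a member's adjusted p but not its difference. The same held for leaving out an array of a group outside the comparison. The sign changes were all of differences near 0 that never passed. Scgb1a1 in WT went to -0.000712 with median centring, -0.00164 with quantile normalization, and to -0.0742 and -0.0103 without the first WT saline and the second WT silica array (range -0.0742 to 0.0806 over arrays left out). Scgb3a1 after saline went to -0.0648 with median centring and to -0.0417 and -0.198 without the first WT saline and the first RagKO saline array (range -0.198 to 0.214). The 3 gains were Nkx2-1 in RagKO. Leaving out each array in turn, the members called ranged from 3 to 4 for silica in WT, 2 to 5 for silica in RagKO, 3 to 4 and 4 to 5 for the genotypes after saline and silica, and 5 to 5 for the difference between silica effects. The genes called ranged from 861 (without the second WT saline array; 2283 with all arrays) to 2389 for silica in WT, from 2380 (without the first RagKO saline array; 3795 with all) to 3842 for silica in RagKO, and from 1647 (without the second WT saline array; 2697 with all) to 2485 for the interaction. Fewer arrays leave 3 residual degrees of freedom or a single array in a group, which is assumed to vary like the others. The replicate numbers did not pair the arrays (same-number deviations between groups correlated from -0.0728 to 0.111). With them as a block, 3 of 6 members were called for silica in RagKO, since Sftpc lay just past the threshold (-0.47, adjusted p = 0.0504), and the genes called ranged from 2244 for silica in WT to 7668 for the genotypes after saline. The list counts without a RagKO silica array were chosen after the Xist values were seen. The depth of single spots is unknown without intensities.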
